A study of Mus musculus with 10 samples.

Results

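Lta4h encodes leukotriene A4 hydrolase, the enzyme that makes the neutrophil attractant LTB4. Its expression was examined in the spleens of DUSP6 KO and WT mice with arthritis, together with 9 other genes of the leukotriene and prostaglandin pathways. The 10 genes were Lta4h, Alox5, Alox5ap, Ltc4s, Ltb4r1, Ltb4r2, Ptgs1, Ptgs2, Alox15 and Ptges. They were named by symbol with earlier results of these data known, and make up 10 of the 54532 genes in the expression table. Lta4h had decreased expression in DUSP6 KO spleens, at 60.8% of the WT level. None of the other 8 genes that could be tested passed the adjusted threshold, and the KO and WT values of each of them overlapped.

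RNA was sequenced from 5 DUSP6 KO and 5 WT spleens, 1 library per mouse, so that each library is a separate animal. DUSP6 is a phosphatase that switches off the kinases ERK1 and ERK2. The KO mice carry the Dusp6tm1Jmol allele, a deletion that is not limited to a cell type, and the sample labels call this genotype a knockdown. The WT mice were C57BL/6J, and both strains came from the Jackson Laboratories. The mice were 8 to 12 weeks old. Both groups had KRN serum-induced arthritis (KSIA), in which 100 µL of pooled serum from arthritic KRN x NOD F1 mice is injected into the peritoneum on days 0 and 2, and the spleens were collected on day 9. There was no group without serum, so the values describe arthritic mice only.

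Arachidonic acid that is released from membranes can enter either of 2 main routes. In the leukotriene route, 5-lipoxygenase (Alox5) and the protein that presents arachidonic acid to it (FLAP, Alox5ap) make leukotriene A4, which LTA4H turns into LTB4 and LTC4 synthase (Ltc4s) turns into the cysteinyl leukotrienes. In the prostaglandin route, the cyclooxygenases (Ptgs1 and Ptgs2) make prostaglandin H2, which synthases such as the one encoded by Ptges turn into prostaglandins. LTB4 acts on neutrophils through the receptor BLT1 (Ltb4r1), and in mice this axis is known to be needed for arthritis in the serum transfer model.

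Promoter sequences of 7 of the 10 genes, from 250 bases before to 50 bases after the transcription start, were found in RefSeq (GRCm38.p6). Those of 4 genes are shown: Lta4h (chr10:93453146-93453445, + strand), Alox5 (chr6:116461129-116461428, - strand), Ltb4r1 (chr14:55765712-55766011, + strand) and Ptgs1 (chr2:36230176-36230475, + strand). All are written 5′ to 3′ on the strand of the gene, and capitals mark every match to a motif searched on both strands.

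Lta4h: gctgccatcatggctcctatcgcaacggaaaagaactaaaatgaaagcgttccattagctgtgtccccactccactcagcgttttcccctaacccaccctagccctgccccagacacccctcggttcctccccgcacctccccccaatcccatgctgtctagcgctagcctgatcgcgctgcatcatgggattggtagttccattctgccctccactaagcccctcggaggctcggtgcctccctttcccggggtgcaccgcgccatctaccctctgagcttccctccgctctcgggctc

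Alox5: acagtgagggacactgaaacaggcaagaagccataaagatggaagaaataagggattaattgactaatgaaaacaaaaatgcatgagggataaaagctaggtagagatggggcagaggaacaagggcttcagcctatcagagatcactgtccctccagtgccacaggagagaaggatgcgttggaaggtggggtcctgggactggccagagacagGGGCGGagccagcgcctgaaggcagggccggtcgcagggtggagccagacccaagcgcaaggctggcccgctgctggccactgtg

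Ltb4r1: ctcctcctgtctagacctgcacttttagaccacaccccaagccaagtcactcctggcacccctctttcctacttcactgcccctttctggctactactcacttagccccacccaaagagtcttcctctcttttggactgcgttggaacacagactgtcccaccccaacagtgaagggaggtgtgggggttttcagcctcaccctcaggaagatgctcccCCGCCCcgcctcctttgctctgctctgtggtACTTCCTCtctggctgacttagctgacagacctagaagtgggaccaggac

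Ptgs1: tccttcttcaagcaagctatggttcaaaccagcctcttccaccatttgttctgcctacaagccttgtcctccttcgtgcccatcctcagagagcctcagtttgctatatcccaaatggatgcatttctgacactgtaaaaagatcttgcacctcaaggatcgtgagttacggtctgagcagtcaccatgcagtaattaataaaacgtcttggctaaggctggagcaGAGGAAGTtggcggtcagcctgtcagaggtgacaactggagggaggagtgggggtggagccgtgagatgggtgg

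The motifs searched were GAGGAAGT (the site of PU.1, the myeloid ETS factor), CCGGAAGT (bound by other ETS factors), TGACTCA (AP-1), TGACGTCA (CRE), the GC box (GGGCGG) and the TATA box (TATAAA), and none of the marked matches overlap each other. The Lta4h window held none of these motifs, which says only that the letters are absent from these 300 bases. It had a GC content of 60.7% and 16 CpG dinucleotides, against medians of 52.7% and 7 over all 32851 promoters. The GAGGAAGT motif was in the windows of 2 of the 7 genes, Ptgs1 and, on the reverse strand, Ltb4r1, and in 3.20% of all promoters. The GC box was in the windows of 4 of the 7 genes, Alox5, Ptgs2, Ptges and, on the reverse strand, Ltb4r1, and in 35.7% of all promoters. The shares of all promoters with the other motifs were 3.89% for CCGGAAGT, 5.20% for TGACTCA, 1.79% for TGACGTCA and 13.6% for TATAAA. A match to a motif is a description of the sequence and does not show that a factor binds there.

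Library depth ranged from 14990474 to 19822673 reads for the KO group and from 15611652 to 18422147 reads for the WT group. Expression is given in FPKM, the number of fragments relative to annotated gene length and library depth. Comparisons of level between genes depend on that length, which may differ from the length of the RNA present. The deleted gene was lower in every library labelled KO, where Dusp6 averaged 0.440 ± 0.117 FPKM against a WT average of 19.4 ± 2.81 (SD, n = 5 each). The 10 spleens were male by their RNA, since Xist never exceeded 0.0206 FPKM and Ddx3y, on the Y chromosome, was never below 14.4 FPKM. Genes of spleen cells were present, with a summed level of 631 to 1621 FPKM for 6 B cell genes and of 1023 to 1575 FPKM for 8 genes of red pulp macrophages. Gene positions are given on GRCm38. The comparison covered the 21296 genes whose mean reached 0.1 FPKM. In it, 8 genes had increased and 7 had decreased expression in DUSP6 KO at an adjusted p of 0.05 or less (limma on log2(FPKM + 0.1), Benjamini-Hochberg). These 15 genes are 0.0704% of those tested, with 0.0376% higher and 0.0329% lower.

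Of the 10 genes, 9 passed the filter on low values and 1, Ptgs2, did not. At the adjusted threshold, 1 of the 9 was called, Lta4h, with decreased expression, against 0.0329% of all genes tested in this direction. The study had already listed Lta4h among its most significant lower genes from these same spleens. It tested counts with DESeq2 and reported a smaller adjusted p for Lta4h than limma on FPKM gave here. The part of Lta4h in the counts given here was thus known beforehand and is no independent support. At an unadjusted p under 0.05 the count was 4 of 9, with Lta4h, Alox5 and Ltc4s below WT and Ptgs1 above it, against 5.66% of all genes in either direction, 3.03% lower and 2.62% higher. The groups did not overlap for 1 of the 9, again Lta4h, whereas this was the case for 1.11% of all genes tested, with KO lower for 0.563% and higher for 0.549%. The log2 fold changes, DUSP6 KO minus WT, were below 0 for 7 of the 9, against 51.0% of all genes, and their median was -0.34, against -0.0046 for all genes tested.

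**Figure D1:**
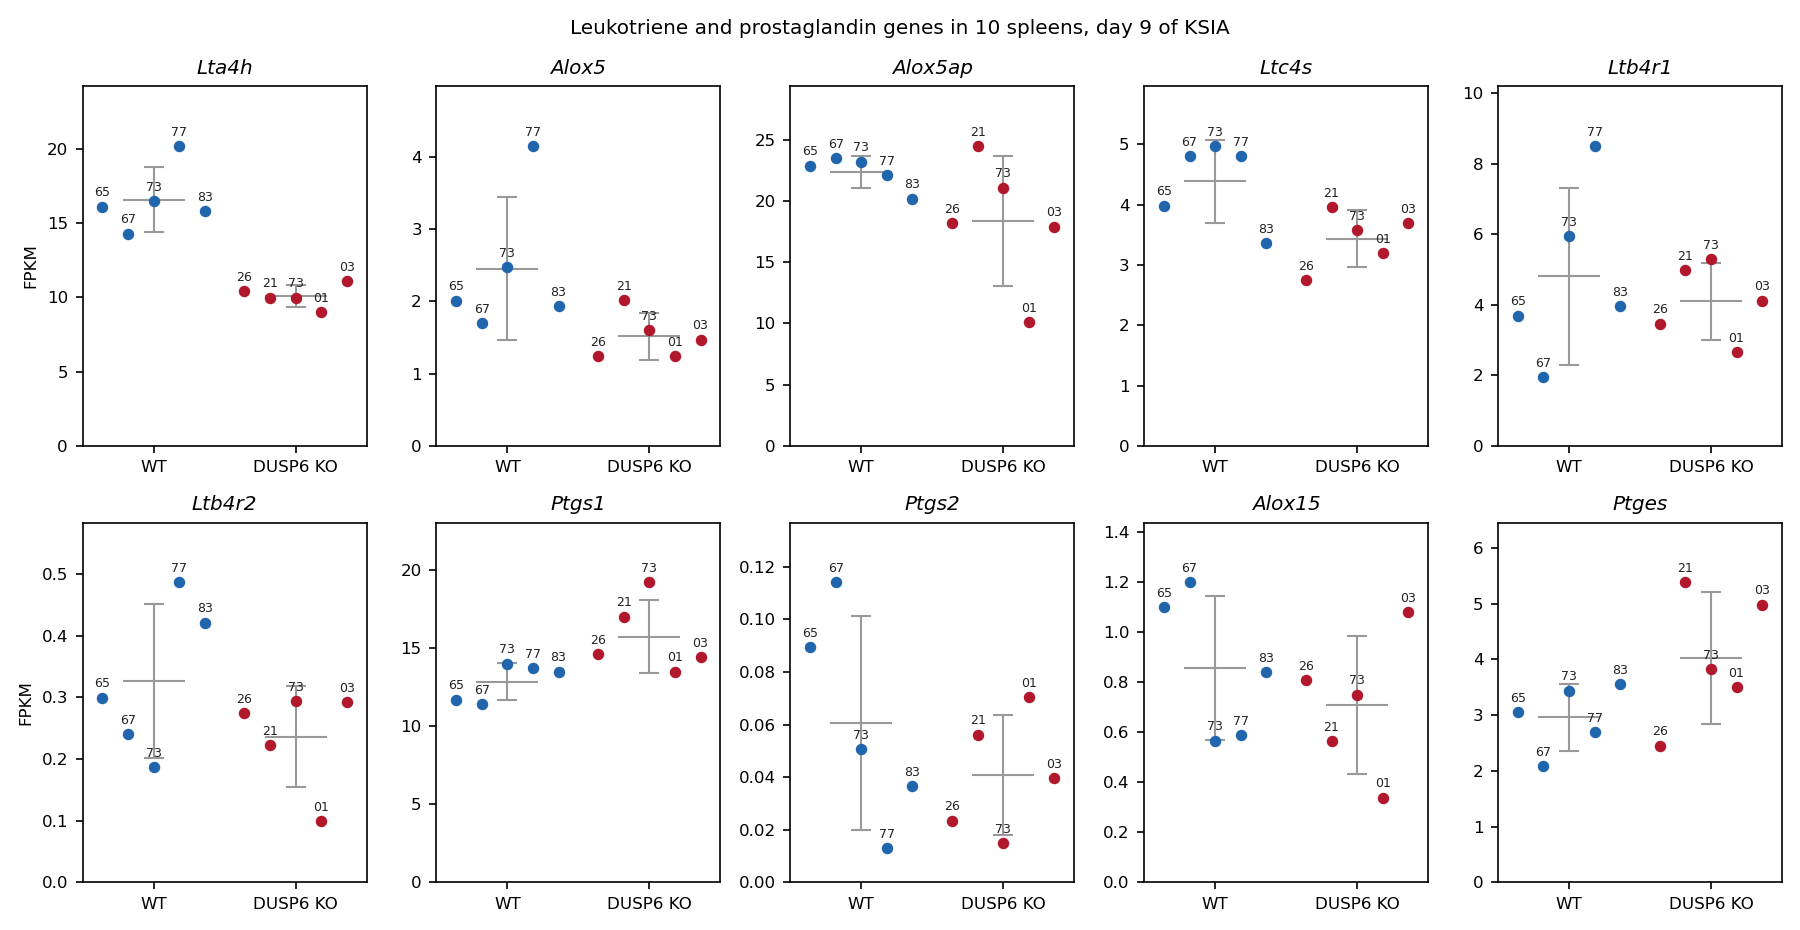
FPKM (vertical axis, from 0, scaled per gene) of the 10 genes in each of the 5 WT and 5 DUSP6 KO spleens. Each point is 1 spleen with its animal number, the long bar is the group mean and the error bars are the SD; the groups are apart for Lta4h (9.01 to 11.1 against 14.3 to 20.2 FPKM) and share part of their range for the other 9 genes.

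The first genes to be described are those that make leukotrienes. Lta4h (ENSMUSG00000015889) lies on the + strand at chr10:93453411-93484875. Its level was 10.4, 9.98, 9.98, 9.01 and 11.1 FPKM in DUSP6 KO mice 26, 21, 73, 01 and 03. In WT mice 65, 67, 73, 77 and 83 it was 16.1, 14.3, 16.5, 20.2 and 15.8 FPKM. All 5 KO spleens were below all 5 WT spleens, and WT 77 stood above the other WT spleens. Lta4h thus averaged 10.1 ± 0.747 FPKM in the KO group against 16.6 ± 2.21 FPKM in the WT group (SD, n = 5 each). The log2 fold change of Lta4h was -0.71 with a standard error of 0.10 and a 95% interval from -0.92 to -0.49 (limma, adjusted p = 0.032). The two-sided exact permutation test gave p = 0.0079, which is the smallest p that 5 against 5 values can give. These values rest on 892 to 2053 reads per library. By p, Lta4h was number 14 of the 21296 genes tested. The adjusted p stayed at or below 0.05 in 11 of 22 alternative analyses and was at most 0.14, while the log2 fold change was between -0.76 and -0.63 in all 22. Without WT 77 it was -0.63 (limma, adjusted p = 0.034), and without KO 01 it was -0.67 (limma, adjusted p = 0.082). In bulk tissue such as this, fewer cells that express a gene and less RNA of that gene per cell cannot be told apart.

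Alox5 (ENSMUSG00000025701, chr6:116410077-116461178, - strand) encodes the lipoxygenase that starts leukotriene synthesis. It was at 1.24, 2.02, 1.60, 1.24 and 1.47 FPKM in DUSP6 KO mice 26, 21, 73, 01 and 03. The WT values were 2.01, 1.70, 2.47, 4.15 and 1.93 FPKM in mice 65, 67, 73, 77 and 83. Of the KO spleens, 4 were below every WT spleen, but KO 21 lay within the WT range, and WT 77 was far above all the others. The means of Alox5 were 1.51 ± 0.322 and 2.45 ± 0.989 FPKM, so the KO mean was at 61.7% of WT, close to the ratio of Lta4h. The log2 fold change was -0.61 with an interval from -1.14 to -0.09, which did not pass the adjusted threshold (limma, adjusted p = 0.79; exact permutation p = 0.032). With 95 to 283 reads per library and a wider spread, Alox5 was measured less precisely than Lta4h, and without WT 77 its log2 fold change was -0.41.

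Alox5ap (ENSMUSG00000060063, chr5:149264767-149288153, + strand), which encodes FLAP, had the highest level of the 10 genes in both groups. It was at 18.2, 24.5, 21.1, 10.1 and 17.9 FPKM in DUSP6 KO mice 26, 21, 73, 01 and 03. In WT the values ran closely together, at 22.9, 23.5, 23.2, 22.1 and 20.2 FPKM in mice 65, 67, 73, 77 and 83. The groups overlapped, since the highest value of all was in KO 21 and the lowest, apart from the rest, in KO 01. The mean of Alox5ap was 18.4 ± 5.33 FPKM in KO and 22.4 ± 1.32 FPKM in WT. The log2 fold change of -0.34 had an interval from -0.77 to 0.09 (limma, adjusted p = 0.94; exact permutation p = 0.11), and it was -0.14 without KO 01.

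Ltc4s (ENSMUSG00000020377, chr11:50236461-50238616, - strand), the synthase that competes with LTA4H for leukotriene A4, was at 2.75, 3.96, 3.57, 3.19 and 3.69 FPKM in DUSP6 KO mice 26, 21, 73, 01 and 03. The WT mice 65, 67, 73, 77 and 83 had 3.98, 4.80, 4.97, 4.80 and 3.36 FPKM. The KO spleens were at or below the lower part of the WT range, but the groups overlapped through WT 83. The means were 3.43 ± 0.471 and 4.38 ± 0.693 FPKM, and the log2 fold change of Ltc4s was -0.34 with an interval from -0.65 to -0.03 (limma, adjusted p = 0.82; exact permutation p = 0.048). The gene is short and was covered by only 52 to 93 reads per library. An antisense gene, Gm26542, overlaps it and had 8 to 22 reads, and the study does not state whether strand was used in counting, so reads of the 2 genes may not be fully separated.

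Within a library, the ratio of Lta4h to Alox5ap ranged from 0.407 to 0.891 in KO and from 0.607 to 0.915 in WT, and these ranges overlapped.

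The 2 receptors for LTB4 are encoded side by side on chromosome 14, and the end of Ltb4r2 lies 824 bases before the start of Ltb4r1. Ltb4r1 (ENSMUSG00000046908, chr14:55765962-55768494, + strand) encodes BLT1, the high affinity receptor of neutrophils. It was at 3.46, 4.98, 5.29, 2.65 and 4.11 FPKM in DUSP6 KO mice 26, 21, 73, 01 and 03. In WT mice 65, 67, 73, 77 and 83 it was at 3.69, 1.95, 5.95, 8.50 and 3.96 FPKM. The WT spleens held both the lowest value, in WT 67, and the highest, in WT 77, and all KO spleens lay between them. The mean of Ltb4r1 was 4.10 ± 1.08 FPKM in KO and 4.81 ± 2.50 FPKM in WT. No difference could be detected, with a log2 fold change of -0.11 and an interval from -0.87 to 0.66 (limma, adjusted p = 0.99; exact permutation p = 0.79). The sign depended on single spleens, since the log2 fold change was 0.13 without WT 77, 0.03 without KO 01 and 0.01 without WT 73.

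Ltb4r2 (ENSMUSG00000040432, chr14:55761428-55765138, + strand) encodes BLT2, the low affinity receptor, and was expressed at a much lower level. It was at 0.0995 to 0.294 FPKM in DUSP6 KO, with the lowest value in KO 01, and at 0.187 to 0.486 FPKM in WT, with the highest in WT 77. The ranges overlapped, the log2 fold change was -0.34 with an interval from -1.01 to 0.34 (limma, adjusted p = 0.98), and only 8 to 30 reads per library support it.

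Next are the genes of the prostaglandin route, for which the means were not below WT where the gene was clearly expressed. Ptgs1 (ENSMUSG00000047250, chr2:36230426-36252272, + strand) encodes cyclooxygenase 1, the constitutive form. It was at 14.6, 17.0, 19.2, 13.5 and 14.4 FPKM in DUSP6 KO mice 26, 21, 73, 01 and 03. The WT values were 11.7, 11.4, 14.0, 13.7 and 13.5 FPKM in mice 65, 67, 73, 77 and 83. Of the KO spleens, 4 were above every WT spleen, and KO 01 lay within the WT range. The means were 15.7 ± 2.32 and 12.9 ± 1.22 FPKM, so that Ptgs1 was at 122% of WT. The log2 fold change was 0.28 with an interval from 0.04 to 0.52 and did not pass the adjusted threshold (limma, adjusted p = 0.79; exact permutation p = 0.024). It was 0.20 to 0.33 in 22 alternative analyses.

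Lta4h and Ptgs1 were expressed at levels of the same order, and their differences from WT had opposite signs. In WT mice 65, 67, 73, 77 and 83 the ratio of Lta4h to Ptgs1 in the same library was 1.38, 1.25, 1.18, 1.47 and 1.17. In DUSP6 KO mice 26, 21, 73, 01 and 03 it was 0.714, 0.587, 0.520, 0.665 and 0.768. Every WT spleen thus had more Lta4h than Ptgs1 per annotated length of gene, and every KO spleen had less. Which of the genes is higher depends on these lengths (6102 and 3884 bases), while the separation of the groups does not. The mean ratio was 1.29 ± 0.133 in WT and 0.651 ± 0.0989 in KO (SD, n = 5 each). This ratio does not depend on how the libraries were scaled to each other. It was chosen after the values of both genes were seen, and so no test is given.

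Ptgs2 (ENSMUSG00000032487, chr1:150100031-150108227, + strand) encodes cyclooxygenase 2, the form that is induced in inflammation. It was close to the limit of detection, with 1 to 10 reads per library. Its level was 0.0149 to 0.0705 FPKM in DUSP6 KO and 0.0131 to 0.114 FPKM in WT, and it was not entered into the limma comparison because its mean was under 0.1 FPKM. No difference was detectable at this depth (two-sided exact permutation test, p = 0.43).

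Ptges (ENSMUSG00000050737, chr2:30889471-30929863, - strand) encodes the inducible prostaglandin E synthase. It was at 2.45, 5.38, 3.82, 3.50 and 4.98 FPKM in DUSP6 KO mice 26, 21, 73, 01 and 03. In WT mice 65, 67, 73, 77 and 83 it was at 3.05, 2.08, 3.44, 2.69 and 3.56 FPKM. Of the KO spleens, 3 were above every WT spleen, while KO 26 lay in the lower part of the WT range. The means of Ptges were 4.03 ± 1.18 and 2.96 ± 0.601 FPKM, or 136% of WT, and the log2 fold change of 0.40 had an interval from -0.08 to 0.89 (limma, adjusted p = 0.94; exact permutation p = 0.13).

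Alox15 (ENSMUSG00000018924, chr11:70344152-70352031, - strand) encodes the 12/15-lipoxygenase, which acts on the same substrates and takes part in the synthesis of lipoxins. It was at 0.339 to 1.08 FPKM in DUSP6 KO and at 0.567 to 1.20 FPKM in WT, with 18 to 56 reads per library. The ranges overlapped and the log2 fold change of Alox15 was -0.27 with an interval from -0.94 to 0.40 (limma, adjusted p = 0.99).

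The order of the levels can be read from the WT means, which were 22.4 FPKM for Alox5ap, 16.6 for Lta4h, 12.9 for Ptgs1, 4.81 for Ltb4r1, 4.38 for Ltc4s, 2.96 for Ptges, 2.45 for Alox5, 0.858 for Alox15, 0.327 for Ltb4r2 and 0.0608 for Ptgs2. Neighbours in this order from Ltb4r1 to Alox5 overlapped in their WT values, and Alox5ap and Lta4h met at 20.2 FPKM. The other neighbours were apart in WT. In DUSP6 KO the order was 18.4 FPKM for Alox5ap, 15.7 for Ptgs1, 10.1 for Lta4h, 4.10 for Ltb4r1, 4.03 for Ptges, 3.43 for Ltc4s, 1.51 for Alox5, 0.709 for Alox15, 0.236 for Ltb4r2 and 0.0409 for Ptgs2. Lta4h and Ptgs1 had thus changed places between the groups, as had Ptges and Ltc4s, although the ranges of the latter overlapped in both groups. These orders rest on the annotated gene lengths.

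Single spleens were often at the ends of these ranges. WT 77 had the highest level of all 10 libraries for 4 genes, which were Lta4h, Alox5, Ltb4r1 and Ltb4r2. KO 01 had the lowest level for 5 genes, Lta4h, Alox5, Alox5ap, Ltb4r2 and Alox15. WT 67 was the lowest for Ltb4r1, Ptgs1 and Ptges and the highest for Ptgs2 and Alox15. That library also held 1279 reads of Pla2g1b, the phospholipase of pancreatic juice, or 94.0 FPKM, against 9 reads in WT 65 and at most 1 read in the remaining libraries. Without WT 67, the log2 fold change of Lta4h was -0.76 (limma, adjusted p = 0.024), and those of Ptgs1 and Ptges were 0.24 and 0.29.

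Across the 10 libraries, some of the genes varied together. After the group means were subtracted, Pearson's r of log2(FPKM + 0.1) was 0.88 for Alox5 with Ltb4r1, 0.82 for Lta4h with Ltb4r1 and 0.78 for Lta4h with Alox5. Without WT 77 these values were 0.83, 0.68 and 0.40 over 9 libraries, so the link between Lta4h and Alox5 rested in large part on that spleen. Ltb4r1 also varied with Ptgs1, with r of 0.75, or 0.80 without WT 77. The libraries share their tissue, scaling and cell makeup, and these correlations are given as descriptions only.

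The 68 other eicosanoid genes examined showed few differences, and 56 of them were expressed highly enough to be tested. At the adjusted threshold 0 of them passed in limma, and at an unadjusted p under 0.05 there was 1 lower and 1 higher gene, while 5.66% of all genes passed. Their log2 fold changes were below 0 for 25 and above 0 for 31, with a median of 0.02.

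The lower gene was Rnpep, which encodes aminopeptidase B, a close relative of LTA4H in the same peptidase family. Rnpep averaged 5.32 ± 0.741 FPKM in the KO group against 7.37 ± 0.734 FPKM in the WT group (SD, n = 5 each). All KO spleens were below all WT spleens, by a narrow margin (the highest KO value was 6.39 and the lowest WT value 6.41 FPKM). For Rnpep the log2 fold change was -0.47 with a standard error of 0.11, which did not pass the adjusted threshold (limma, adjusted p = 0.37). The higher gene was Cmklr1, a receptor for chemerin that has also been described as a resolvin receptor. It was at 6.88 ± 0.449 FPKM in KO and 5.83 ± 0.397 FPKM in WT, with all KO spleens above all WT spleens. Its log2 fold change was 0.24 with an interval from 0.06 to 0.42 (limma, adjusted p = 0.74).

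By step, the median log2 fold change was 0.07 for 12 tested genes of arachidonate release, led in level by Pla2g2d (56.7 and 53.2 FPKM in KO and WT), Pla2g7 (30.6 and 26.2 FPKM) and Mgll (16.4 and 15.6 FPKM). For 11 genes of later leukotriene steps and transport it was -0.03. The most expressed of these were Mgst3 (73.5 and 60.2 FPKM), a glutathione transferase, and Cyp4f18 (27.3 and 35.3 FPKM), a hydroxylase that inactivates LTB4 in neutrophils. Cyp4f18 had a log2 fold change of -0.37 with an interval from -0.80 to 0.06. For 7 receptors of cysteinyl leukotrienes, lipoxins and resolvins the median was -0.17, with Gpr18 at 35.1 and 39.6 FPKM, Fpr1 at 11.5 and 9.83 FPKM and Fpr2 at 6.48 and 7.75 FPKM. For 7 other lipoxygenases and epoxide enzymes it was -0.08, with Ephx1 at 41.2 and 41.3 FPKM and the platelet lipoxygenase Alox12 at 8.68 and 10.4 FPKM.

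On the prostaglandin side, the median was 0.11 for 8 further synthases, with Ptges3 at 49.5 and 53.5 FPKM and Fam213b at 31.3 and 27.6 FPKM in KO and WT. It was 0.08 for 4 genes of prostaglandin inactivation and uptake, with 75.4 and 70.1 FPKM for Hpgd, the enzyme that oxidises prostaglandins, and 10.1 and 9.71 FPKM for the transporter gene Slco2a1. It was -0.23 for 7 prostanoid receptors, with the thromboxane receptor gene Tbxa2r at 13.1 and 12.6 FPKM, Ptger4 at 4.38 and 4.49 FPKM and Ptgir at 4.22 and 4.01 FPKM. None of these groups of genes held more than 1 gene with an unadjusted p under 0.05.

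**Figure D2:**
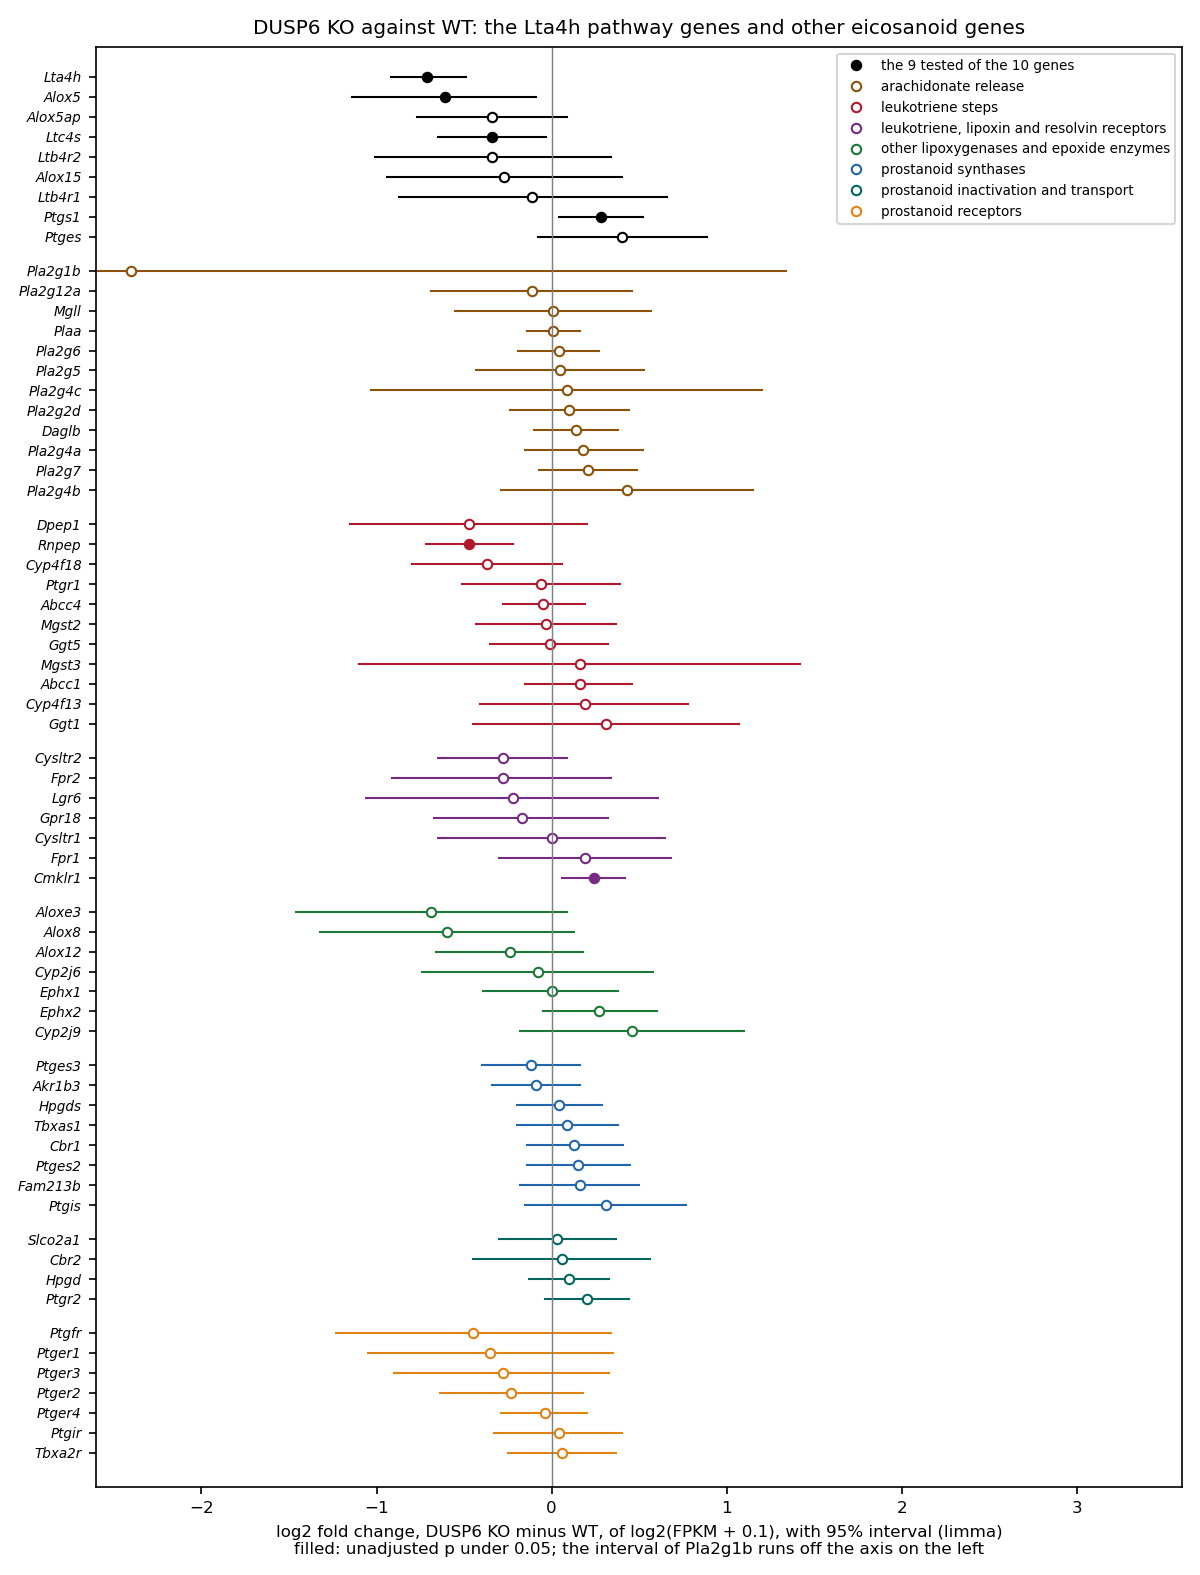
Log2 fold change, DUSP6 KO minus WT, of log2(FPKM + 0.1) (horizontal axis) with its 95% interval from limma, for the 9 tested genes in black and 56 other eicosanoid genes in colours by pathway step. Filled points have an unadjusted p under 0.05, and of these Lta4h at -0.71 is farthest from 0; the interval of Pla2g1b, detected almost only in WT 67, extends beyond the axis.

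Leukotriene enzymes are mainly made by granulocytes, mast cells and macrophages, so the summed FPKM of marker genes was set beside the results. For 9 basophil and mast cell markers the sum was 14.1 to 18.6 FPKM in DUSP6 KO and 25.7 to 54.3 FPKM in WT, without overlap, and the highest value was in WT 77. All 9 had a log2 fold change below 0 (8 without WT 65) and 4 of them had an unadjusted p under 0.05. Over all genes tested, 51.0% were below 0 and 3.03% were lower at this p. In place of 4 there were 3 with no filter on low values, and 3 without KO 01, KO 03, KO 73, WT 65, WT 73 or WT 77. Among the 4 were the basophil proteases Prss34, at 2.58 ± 1.24 and 11.9 ± 6.64 FPKM in KO and WT, and Mcpt8, at 1.73 ± 0.390 and 6.45 ± 3.81 FPKM. Kit was at 5.63 ± 0.477 and 5.92 ± 0.387 FPKM and Gata2 at 2.48 ± 0.312 and 2.64 ± 0.541 FPKM (SD, n = 5 each). The 9 markers thus did not differ equally, and much of the difference in their sum lay in Prss34 and Mcpt8.

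For 15 neutrophil markers the sum was 594 to 2009 FPKM in KO and 1182 to 4952 FPKM in WT, with the lowest value in KO 01 and the highest in WT 77. All 15 had a log2 fold change below 0 (13 without KO 01), and 7 had an unadjusted p under 0.05. The 7 became only 2 without WT 77, KO 01 or KO 03, 3 without WT 73, and 4 without WT 83 or with no filter. The shares over all genes are again 51.0% below 0 and 3.03% lower at this p. The most expressed, S100a9 and S100a8, were at 422 ± 209 and 267 ± 146 FPKM in KO and at 960 ± 580 and 604 ± 388 FPKM in WT. These genes weigh most in the sum, and the markers did not differ equally. Csf3r was at 21.9 ± 15.1 and 21.3 ± 3.43 FPKM in KO and WT, with its highest value in KO 21 (log2 fold change -0.15). Stfa2l1 was at 6.12 ± 2.85 and 6.47 ± 1.63 FPKM (log2 fold change -0.17). Of 8 monocyte markers, 4 were lower and 3 higher in KO at an unadjusted p under 0.05, and the lower ones numbered 2 without KO 01, KO 03, WT 67 or WT 73. Over all genes tested, 3.03% were lower and 2.62% higher at this p. Chil3 was at 41.5 and 92.1 FPKM and Ly6c2 at 27.9 and 39.0 FPKM in KO and WT, while Csf1r was at 154 and 118 FPKM and Treml4 at 43.8 and 31.0 FPKM. The sum of these markers was 256 to 359 FPKM in KO and 283 to 414 FPKM in WT. The sums of 6 eosinophil markers (41.1 to 76.3 and 38.6 to 77.7 FPKM), 8 red pulp macrophage markers (1023 to 1575 and 1101 to 1355 FPKM) and 8 megakaryocyte markers (237 to 338 and 226 to 526 FPKM) overlapped between the groups. The log2 fold changes were below 0 for all 8 megakaryocyte markers, with a median of -0.36 and 2 at an unadjusted p under 0.05 (3 without KO 21, 3 without WT 65 and 6 without WT 67). They were also below 0 for all 6 eosinophil markers, with a median of -0.21 and 1 at an unadjusted p under 0.05 (0 without KO 01, WT 67 or WT 83). Among the red pulp macrophage markers 2 of 8 were below 0 and 2 were higher at an unadjusted p under 0.05. All 6 B cell markers were below 0 as well, with a median of -0.18 (4 below 0 without KO 73), and 0 had an unadjusted p under 0.05. Of 6 fibroblast and endothelial markers, 2 were below 0 and 2 were higher at this p. No marker was at 0 reads in all libraries.

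Lta4h followed the basophil and mast cell sum most closely, with r = 0.90 on log2 values after the group means were subtracted, over 10 libraries, and 0.74 over 9 libraries without WT 77. With the neutrophil sum r was 0.70, and 0.38 without WT 77. Alox5 followed the monocyte sum (r = 0.90, and 0.78 without WT 77) and then the megakaryocyte and platelet sum (0.82, and 0.66 without WT 77), the basophil and mast cell sum (0.82, and 0.39 without WT 77) and the neutrophil sum (0.78, and 0.54 without WT 77). Ltb4r1 followed the neutrophil sum (r = 0.87, and 0.78 without WT 77), but other sums were nearly as close. These were the monocyte sum (0.83, and 0.71), the megakaryocyte and platelet sum (0.83, and 0.72) and the basophil and mast cell sum (0.80, and 0.69). Ptgs1 followed the neutrophil sum (r = 0.83, and 0.94 without WT 77) and the monocyte sum (0.79, and 0.93) about equally. Alox5ap was closest to the red pulp macrophage sum, with r of 0.74. Without WT 77 it was 0.77, against 0.76 for the monocyte sum. Ltc4s was closest to the sum of 6 fibroblast and endothelial markers, with r of 0.58, or 0.66 without WT 77. The part of these cell types in the expression of Lta4h, Alox5 and the other genes was not tested.

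**Figure D3:**
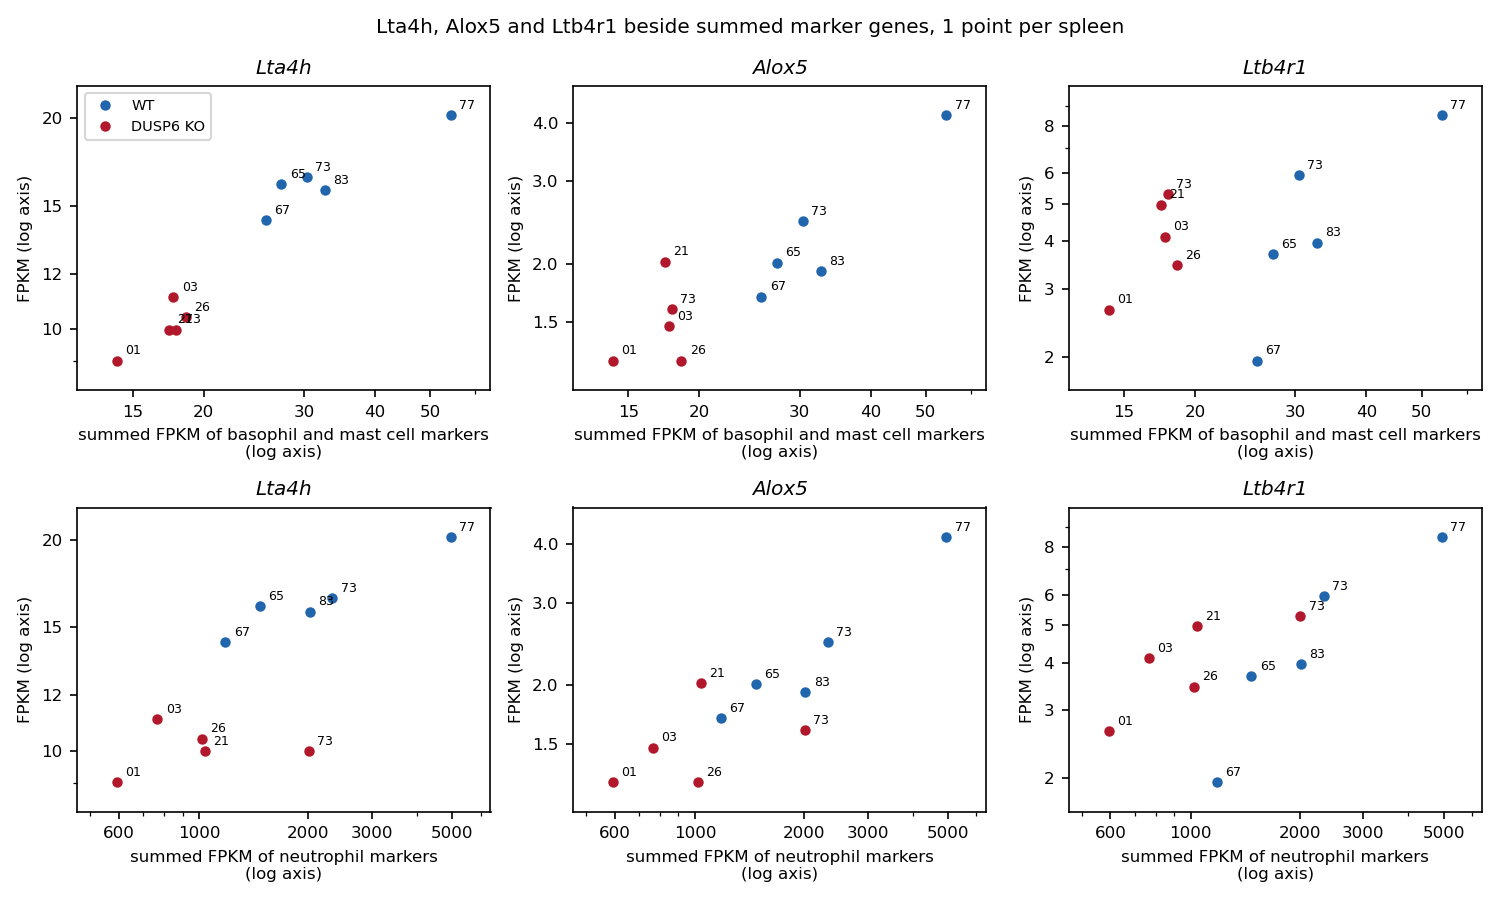
FPKM of Lta4h, Alox5 and Ltb4r1 (vertical, log axes) against the summed FPKM of 9 basophil and mast cell markers and of 15 neutrophil markers (horizontal, log axes), 1 point per spleen with its animal number. Both Lta4h and the basophil and mast cell sum separate the 5 KO spleens (14.1 to 18.6 FPKM summed) from the 5 WT spleens (25.7 to 54.3 FPKM), and WT 77 is at the upper end of all 6 panels.

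When the 13421 other genes whose mean reached 1 FPKM were compared with Lta4h over the 10 libraries, the 5 most alike were Prss34 (r = 0.949), Gm15915 (0.947), Tdg (0.934), Slc35e1 (0.918) and Dusp6 (0.915). These genes also had all KO values below all WT values, which this ranking favours because the group difference of Lta4h enters r. Gm15915, Tdg and Dusp6 lie on chromosome 10, as Lta4h does. After the group means were subtracted r was 0.79 for Prss34, 0.57 for Slc35e1, 0.43 for Gm15915, 0.21 for Tdg and -0.51 for Dusp6. Within the groups, the basophil protease Prss34 was the most alike of the 5. For Alox5 the 5 most alike genes were Padi4 (0.955), F10 (0.931), Anxa1 (0.929), Pls1 (0.922) and Ighv1-12 (0.917). Here r after subtraction of the group means was 0.86 to 0.92. Padi4 encodes a peptidylarginine deiminase of granulocytes, at 1.13 ± 0.310 and 1.92 ± 0.797 FPKM in KO and WT, and Anxa1 encodes annexin A1, at 26.3 ± 6.15 and 38.5 ± 17.7 FPKM.

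Lta4h lies on chromosome 10, as Dusp6 does, at a distance of 5.78 Mb. The expression of its neighbours was therefore examined in a window of 500 kb on both sides, which held 29 genes, Lta4h included, of which 15 were tested. Of the 15, 2 passed the adjusted threshold, Lta4h and Gm15915, against 0.0704% of all genes tested. At an unadjusted p under 0.05 there were 5, against 5.66%. The window was centred on Lta4h with its difference already known. Lta4h is counted in both numbers, so they do not describe the neighbours alone. Gm15915, annotated as an antisense gene 189.3 kb from Lta4h in the direction of Dusp6, averaged 0.262 ± 0.161 FPKM in the KO group against 9.68 ± 2.47 FPKM in the WT group (log2 fold change -4.83, limma adjusted p = 4.5e-05). The nearest tested gene on that side was Hal, a histidine ammonia lyase gene 3.9 kb away. Hal was higher in all KO spleens, but at a low level of 0.200 ± 0.0854 against 0.0545 ± 0.0395 FPKM (limma, adjusted p = 0.71). It had only 2 to 28 reads per library and passed the filter of 0.1 FPKM only through its KO values. Snrpf, 98.2 kb away, was at 27.6 ± 7.88 and 40.5 ± 10.3 FPKM (limma, adjusted p = 0.80). On the other side, the nearest tested gene was Gm17745, 104.5 kb away, with a log2 fold change of -0.12, and Cdk17, 186.3 kb away, had one of -0.24 (limma, adjusted p = 0.77). At an unadjusted p under 0.05 (limma), Lta4h, Gm15915, Snrpf and Cdk17 were lower in KO, and only Hal was higher. The KO allele and whatever lies linked to it on chromosome 10 came together in all 5 KO mice, so an effect of the missing DUSP6 and an effect of linked sequence cannot be told apart here.

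**Figure D4:**
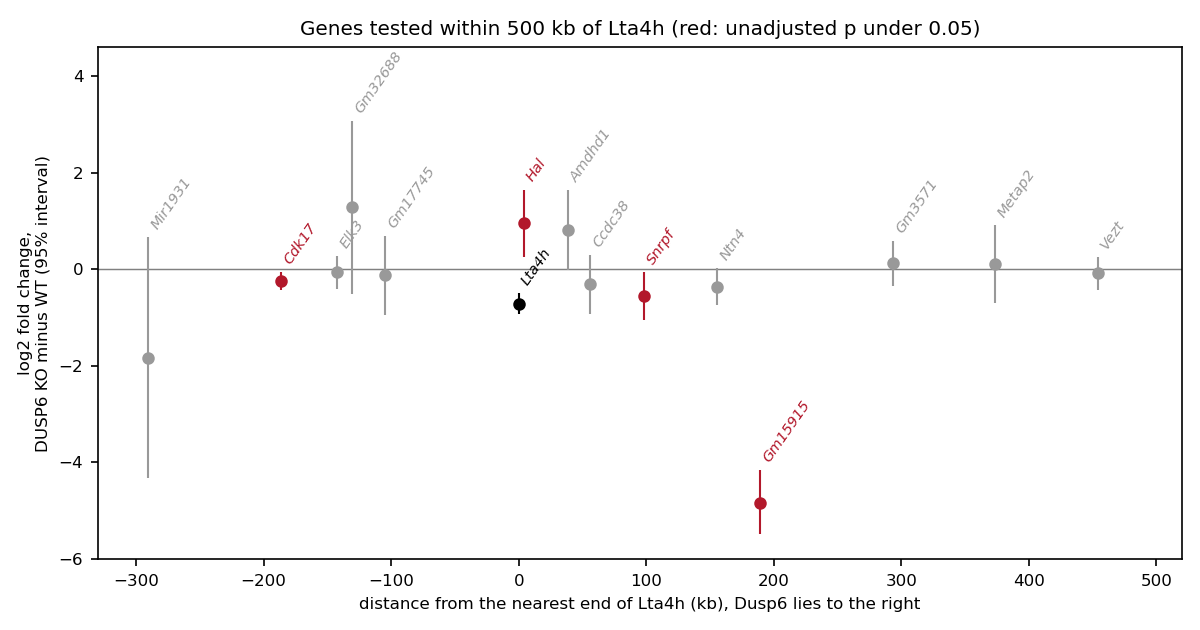
Log2 fold change, DUSP6 KO minus WT, with its 95% interval from limma (vertical) for the 15 genes tested within 500 kb of Lta4h, against the distance from the nearest end of Lta4h in kb (horizontal, Dusp6 to the right). Lta4h is black and the other genes with an unadjusted p under 0.05 are red. Gm15915 at -4.83 stands apart. Hal, the closest tested neighbour, is on the opposite side of 0, but passed the filter on low values only through its KO values.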

How the data were processed

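RNA of 10 spleens (5 DUSP6 KO, 5 WT) was poly-A selected and sequenced by a service provider. According to the methods, the authors aligned reads with Hisat2, counted them with featureCounts (1.5.0-p3 in the submitters' processing notes), computed FPKM from count and gene length, and tested counts with DESeq2. The authors deposited FPKM values and gene lengths for 54532 genes, and only these were used. The notes name the human build hg38, but 53585 genes (98.3% of the 54495 shared) have the coordinates of mouse GENCODE M21 (GRCm38). Whether counting used strand is not given in the sources used here. Each value was a whole number of reads (100% within 0.001), so that reads per library could be recovered. Intervals are 95% confidence intervals from limma of the difference between the group means. They rest on the variation between these spleens and are not the range of single spleens.

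Groups were compared in limma 3.58.1 (R 4.3.3), with a mean-variance trend in eBayes, on log2(FPKM + 0.1) of the 21296 genes reaching a mean FPKM of 0.1, without covariates, adjusted over all of them (Benjamini-Hochberg, threshold 0.05). Fold changes on this scale understate those of low genes. Exact permutation tests were two-sided. The limma script was tested on simulated data. Within groups, the chi-square per gene of the 20 pairs of libraries was 13.4 to 151, so none was a duplicate. Groups came from the sample titles.

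The 10 genes, the pathway and marker lists and the tests were chosen with earlier results of these data known. Named are the 10 genes; of each pathway list the genes with an unadjusted p under 0.05 and up to 3 others of the highest mean FPKM; up to 4 markers a list; neighbours of Lta4h with an unadjusted p under 0.05 and the nearest tested on each side; and the 5 genes most alike. Pla2g1b was added after its values were seen. Alternatives were other pseudocounts, filters, variance models, scalings, array weights, limma voom on recovered reads and leaving out each library. Of 2 gene IDs named Dpep2, the more expressed was used. Scripts used Python 3.11.15, scipy 1.17.1 and matplotlib 3.10.9.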

Additional observations from a re-analysis of the deposited data

How the results depend on the processing

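The log2 fold change of Lta4h was below 0, with an unadjusted p under 0.05, in all 22 alternatives, but its adjusted p was above 0.05 in 11. With no filter it was -0.71 (limma, adjusted p = 0.14), without the variance trend -0.71 (0.10), with median centring -0.69 (0.053), and with FPKM recomputed from the recovered reads and their sum -0.71 (0.051). The last alternative was chosen after seeing the data, because the reads were 0.89 to 1.053 times the total that the deposited FPKM imply. In each of these 4 the number of the 10 genes at an adjusted p of 0.05 or less was 0 in place of 1. Leaving out single libraries gave -0.76 to -0.63 for Lta4h and 0 or 1 such genes. The number of genes of the 10 at an unadjusted p under 0.05 was 2 to 4 when libraries were left out, against 4 (2 without KO 01, WT 67 or WT 73). Ltb4r1 changed sign without KO 01 (0.03), WT 73 (0.01) or WT 77 (0.13), and was -0.38 at the lowest, without WT 67. The other 7 tested genes kept the sign of their log2 fold change in every alternative in which they were tested, and all stayed above an adjusted p of 0.05. Exact permutation of FPKM in place of log2 values kept every p on its side of 0.05.

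Over all genes, 8 were higher and 7 lower at the adjusted threshold. With no filter the counts were 4 and 4, with array weights 13 were higher, and with a minimum mean of 1 FPKM 4 were lower. Without single libraries they were 6 to 21 higher (21 without KO 21) and 4 to 13 lower (13 without KO 21, 4 without WT 83). Of the 68 other eicosanoid genes, lower ones at an unadjusted p under 0.05 numbered 3 without the variance trend and 2 with limma voom, and 1 to 3 without single libraries (3 without WT 77). Higher ones numbered 1 to 2 (2 without WT 65 or WT 77). The causes of these shifts were not tested. No paired analysis was possible because the replicate numbers are animal numbers and only 73 occurs in both groups. Depth limits Ptgs2, Ltb4r2 and Alox15, with at most 10, 30 and 56 reads per library.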
